A study of Homo sapiens with 30 samples.

Results

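This account concerns activated against resting Jurkat E6-1 cells that lack SLAMF6 isoform 1 (KO). Jurkat E6-1 is an established line of leukaemic human T cells, and SLAMF6 encodes a self-binding receptor of the signalling lymphocyte activation molecule (SLAM) family. The activated libraries were the 3 that the labels call KO, stimulated, time point 36, and the resting libraries the 3 that they call KO, unstimulated, time point 0. Both groups carry the knockout, and the labels separate them by stimulation and by time point. No unstimulated KO library of time point 36 is in the series, so stimulation and elapsed time cannot be told apart. These are 6 of 30 libraries; the other 24 cover KO cells at 6, 12 and 24 h and unedited cells (WT) of the same line at 0, 6, 12, 24 and 36 h, of which KO at 24 h and WT at 36 h and 0 h are used here for reference. Of 54300 gene symbols in the files, 21554 passed the filter on low counts and were tested. The treatment protocol names activation of WT or SLAMF6∆17-65 cells with the phorbol ester PMA at 200 ng/ml and the calcium ionophore ionomycin at 300 ng/ml, for a cytokine assay of 48 h, and hours were taken as the unit of the time points for that reason. Where the series title mentions isoform 3, the design text has isoform 1 knocked out, and the design text is followed here. Neither the number of KO clones nor separate cultures behind the libraries of a group are given. The p-values rest on the spread within groups, estimated over all 30 libraries, and that spread may be technical.

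PMA stands in for diacylglycerol and activates protein kinase C and RasGRP proteins, while ionomycin raises cytosolic calcium and with it calcineurin. Together they bypass the T cell receptor and drive the transcription factors AP-1, NF-kB and NFAT, which act at the promoters of cytokine genes such as IL2. Jurkat cells have the phenotype of an immature T cell leukaemia, and they divide in culture without stimulation.

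The libraries held 16199459, 18758132 and 26265436 counts at 36 h, against 24161545, 5635023 and 28009093 counts at 0 h. Pearson correlations of log2 CPM (counts scaled to a common library size) were 0.976 to 0.979 among the 36 h libraries and 0.969 to 0.984 among the 0 h libraries, and 0.917 to 0.936 between the groups. The share of counts on mitochondrially encoded symbols was 4.49% to 5.59% at 36 h, against 7.19% to 7.85% at 0 h. Library titles carry the letter C at 36 h, against B at 0 h, and what the letter stands for is not given, so letter and time cannot be told apart. KO libraries of 24 h carry the letter B, and the levels of some genes in them are given for that reason. Of the 13 markers checked for a Jurkat T cell line, CD3D, CD3E, CD3G, CD247, CD2, CD5, CD28, LCK, ZAP70 and TAL1 were above 70 CPM in each of the 6 libraries, while CD4 was at 0.929 to 1.29 CPM at 36 h, against 5.14 to 5.64 CPM at 0 h, CD7 was at 3.87 to 5.41 CPM at 36 h, against 24.9 to 27 CPM at 0 h, and PTCRA was under 2 CPM in both groups. Summed levels of the 15 listed monocyte markers, 9 of them tested, were 110 to 111 CPM at 36 h, against 87.5 to 137 CPM at 0 h. The 15 listed B cell markers, 10 of them tested, summed to 59.7 to 64 CPM at 36 h, against 62.9 to 75.3 CPM at 0 h. Called among them were CD68 and ITGAM of the monocyte list, both higher, and FCER2 (higher), CR2 and EBF1 (both lower) of the B cell list. AIF1 gave most of the monocyte sum, with a mean of 87 CPM at 36 h, against 109 CPM at 0 h, and CD79A had 25.2 CPM at 36 h, against 26.2 CPM at 0 h. LYZ, S100A8 and CD22, other members of these lists, held at most 6 counts over the libraries of either group. Whether other cells have a part in any result was not tested.

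SLAMF6, the targeted gene, rose. It was at 144, 125 and 149 CPM at 36 h, against 18.2, 21.0 and 18.6 CPM at 0 h, and the groups did not overlap (log2 2.87 ± 0.14 (SE), adjusted p = 1.74e-17). The KO libraries of 24 h had 109.7, 113 and 147 CPM. Unedited cells had 101, 103 and 112 CPM at 36 h and 19.0, 25.1 and 19.4 CPM at 0 h. Counts are summed over isoforms of the gene, so these values do not check the loss of isoform 1.

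Fewer cells with a transcript and less of it per cell cannot be told apart in such bulk libraries. Of the 21554 genes tested, 7900 (36.7%) differed between 36 h and 0 h at an adjusted p under 0.05 in edgeR's quasi-likelihood test with Benjamini-Hochberg adjustment, which is what "called", "rose" and "fell" mean in what follows. Of these, 4010 (18.6% of those tested) were higher at 36 h and 3890 (18%) were lower. At least 2-fold changes numbered 2231 higher and 1687 lower, and at least 4-fold changes 1158 higher and 669 lower. The rises reached further than the falls: 128 called genes with a mean of at least 10 CPM in 1 of the groups were at least 16-fold higher, and 23 were at least 16-fold lower. The groups did not overlap for 3828 of the higher and 3722 of the lower genes. Calling itself favours genes whose groups stand apart, and the share over all genes tested was not counted, so these counts add no support. The median log2 change over all genes tested was 0.0443. For each gene given with a standard error (SE) of its change from rest, the 3 libraries of 1 group all lay above the 3 of the other. That was a condition for naming most of these genes, so it is no separate result. Members given by a log2 change alone were picked after their values were seen, as well-known members of their list.

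**Figure D1:**
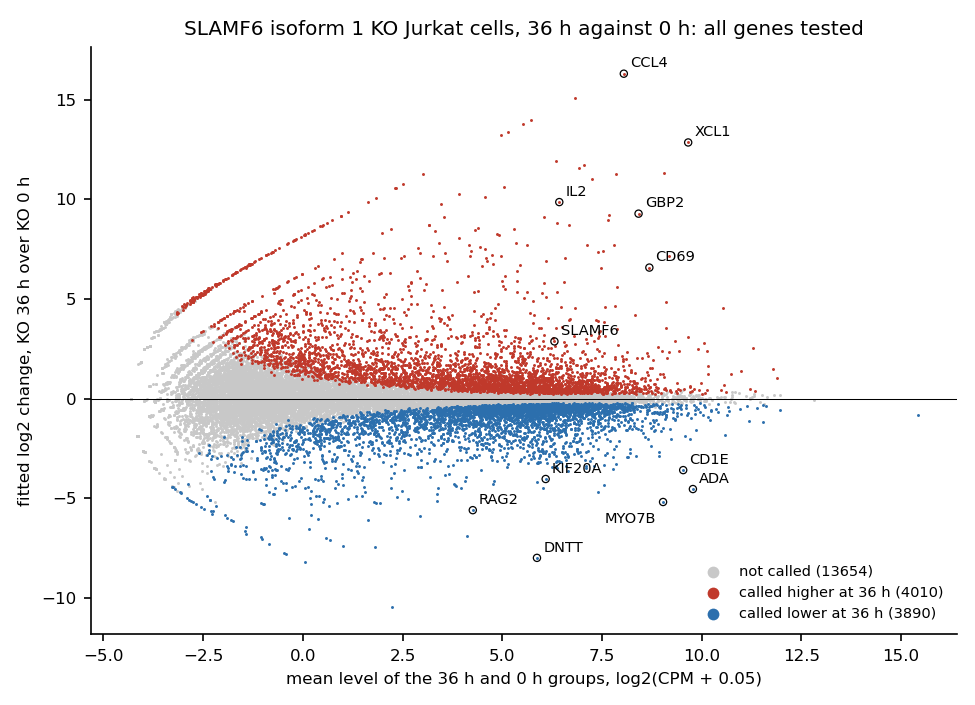
Fitted log2 change of each gene tested (KO 36 h over KO 0 h, vertical axis) against its mean level in the 2 groups (log2 of CPM plus 0.05, horizontal axis); red points were called higher (4010), blue points lower (3890) and grey points not called. Rises such as CCL4 and XCL1 lie further from 0 than falls such as DNTT, and the arcs at the left edge are genes with no count in 1 group, whose fitted change depends on the prior count.

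Among 41 lists of genes grouped by role, the shares called higher and lower ranged widely around those of all genes. All 9 genes of the EGR, NR4A and NAB list, 16 of 17 genes of MHC class I presentation and 39 of 45 interferon-stimulated genes were higher at 36 h. All 34 genes of G2 and mitosis and 35 of 36 genes of S phase were lower. In contrast, 52 of 55 cytosolic ribosomal protein genes were not called.

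**Figure D2:**
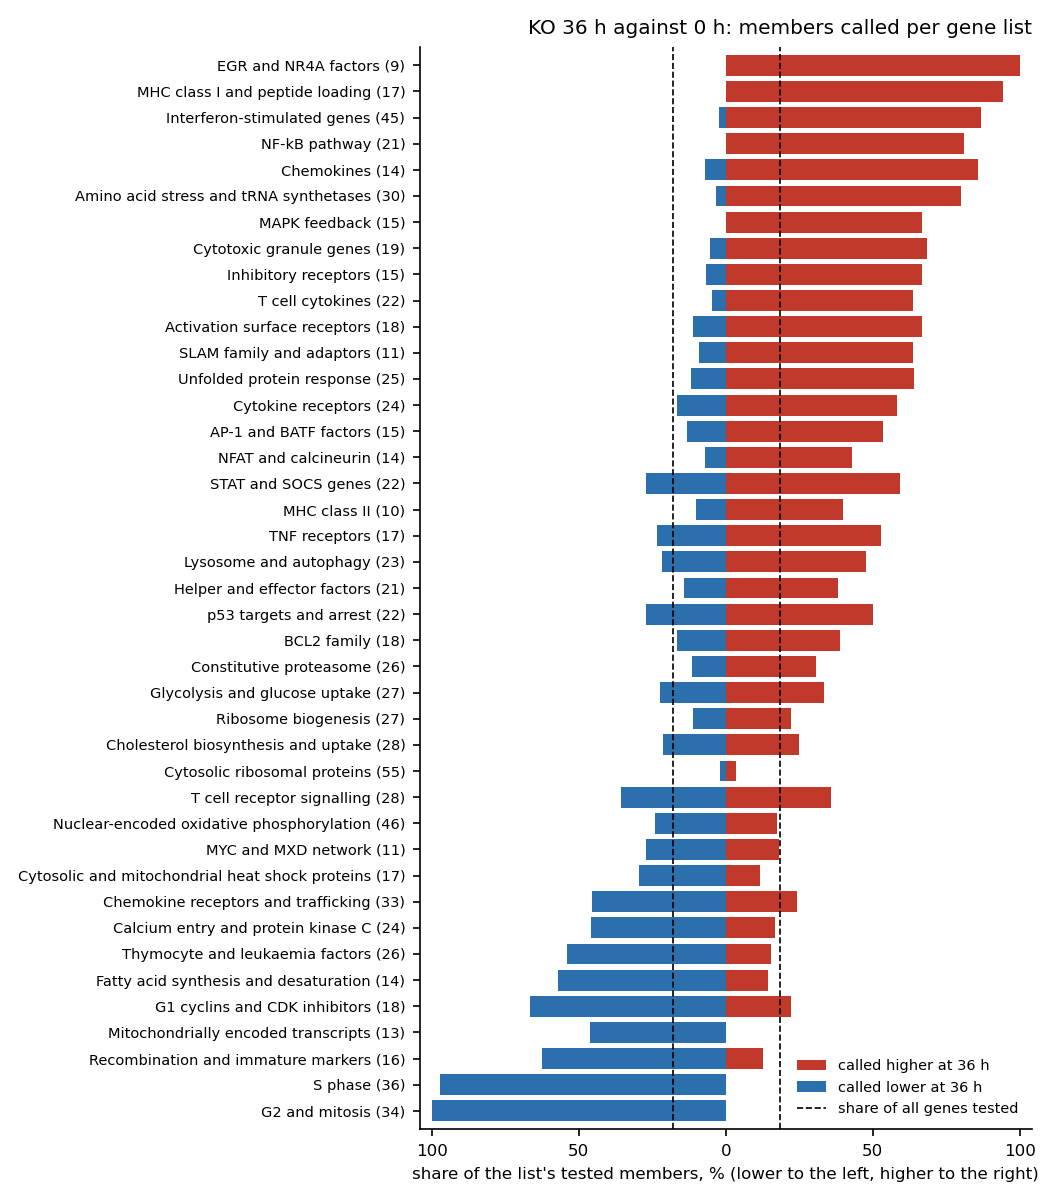
Share of each list's tested members (number in brackets) called higher at 36 h (red, to the right) and called lower (blue, to the left) in KO cells, in percent; dashed lines mark the same shares over all genes tested, 18.6% and 18%. The lists run from EGR and NR4A factors, where every tested member was higher, to G2 and mitosis, where every one was lower.

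Cytokines made by T cells were among the genes with the largest rises. Of 22 tested members of the cytokine list, 14 were higher at 36 h, each at least 2-fold, and 1 was lower, with a median log2 change of 2.7, against 0.0443 over all genes. IL2, the T cell growth factor whose secretion the study's protocol assays, was at 179.8, 160.1 and 176 CPM at 36 h, against 0.17, 0.176 and 0.188 CPM at 0 h. The 0 h libraries held 10 IL2 counts in all, and the 36 h libraries lay far above them (log2 9.86 ± 0.79 (SE), adjusted p = 5.51e-12). At 24 h it had 92.4, 92.7 and 179 CPM. CSF2, which encodes granulocyte-macrophage colony-stimulating factor, was at 252, 223 and 250.1 CPM at 36 h, against 0, 0.352 and 0.0752 CPM at 0 h, on 4 counts at rest (log2 11.58 ± 0.82 (SE), adjusted p = 2.76e-13). TNFSF14, encoding the TNF family ligand LIGHT, had 225, 228 and 232 CPM at 36 h and no count in the 0 h libraries, and was at least 4246-fold higher against a floor of 3 counts over the 0 h group (adjusted p = 8.31e-13). IFNG, encoding interferon gamma, was at 19.2, 16.8 and 17.7 CPM at 36 h, against 0, 0 and 0.0752 CPM at 0 h. Those 0 h values rest on 2 counts, so no fold is given, and the difference was called (adjusted p = 8.95e-10). Among the other members called higher, LTA (lymphotoxin alpha) and CD40LG rose by 1.92 and 1.93 on the log2 scale, TNF by 4.30 and IL3 by 8.53, the last on 6 counts at rest. IL13, a type 2 cytokine, was at 2.28, 2.67 and 1.59 CPM at 36 h, against 0.553, 0.352 and 0.188 CPM at 0 h (log2 2.56 ± 0.56 (SE), adjusted p = 0.000358). IL10, which encodes an anti-inflammatory cytokine, was the member called lower, at 0, 0.154 and 0 CPM at 36 h, against 0.765, 0.528 and 0.376 CPM at 0 h, on 3 counts at 36 h (adjusted p = 0.0243). That call was lost under 5 alternatives, without KO 0 h replicate 1 and without KO 36 h replicate 4 or 6 among them. IL32, TGFB1, OSM and LTB were among the 7 members not called, with log2 changes of 0.10, 0.19, 0.39 and 0.96.

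The promoters of IL2 and CSF2 are printed because these cytokine genes rose from near 0 and their regulation by NFAT is the textbook case of calcium-driven transcription. Sequences are RefSeq windows on GRCh38.p14, from 250 bases before to 50 after the start of the gene (IL2 at chr4:122456676-122456975, minus strand; CSF2 at chr5:132073539-132073838, plus strand), while the counts were made on an older build. Capitals mark the NFAT core GGAAA on either strand, and AP-1 sites TGANTCA were searched and not found in these windows.
IL2: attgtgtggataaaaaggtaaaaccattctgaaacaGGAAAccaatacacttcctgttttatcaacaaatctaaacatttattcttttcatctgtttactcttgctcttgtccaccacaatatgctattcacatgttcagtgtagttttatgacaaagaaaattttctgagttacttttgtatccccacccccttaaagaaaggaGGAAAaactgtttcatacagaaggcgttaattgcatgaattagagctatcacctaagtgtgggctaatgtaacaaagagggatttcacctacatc
CSF2: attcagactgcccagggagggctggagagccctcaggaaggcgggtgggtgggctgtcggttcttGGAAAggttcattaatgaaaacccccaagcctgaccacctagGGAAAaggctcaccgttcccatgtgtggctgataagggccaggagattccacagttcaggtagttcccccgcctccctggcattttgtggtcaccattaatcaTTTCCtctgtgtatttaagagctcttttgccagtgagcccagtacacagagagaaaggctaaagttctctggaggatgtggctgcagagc
The core occurred at 2 places in the IL2 window and 3 in the CSF2 window. Of 17 cytokine genes with a window, 82.4% held GGAAA, against 58.9% of the 11600 tested genes with a window, and 58.4% of all windows of genes called higher held it. TGANTCA was held by 5.88% of the cytokine windows, 6.41% of those of genes called higher and 5.19% of all. The motifs are short and a match is a description of these letters.

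Most genes of chemokines, which attract other leukocytes, were higher at 36 h. Of 14 tested members, 12 were higher at 36 h and 1 was lower. The summed level of all 19 listed members was 3360 to 3600 CPM at 36 h, against 1.4 to 3.64 CPM at 0 h. The median log2 change was 8.25, or 6.87 with the members at 0 counts at rest set to their lower bound. CCL4, a chemokine that attracts T cells and monocytes, had 486, 527 and 574 CPM at 36 h and no count at 0 h, at least 9842-fold higher (adjusted p = 9.41e-11). XCL1 (lymphotactin) was at 1568, 1701 and 1589 CPM at 36 h, against 0, 0 and 0.451 CPM at 0 h, and its 12 counts at rest came from 1 library (log2 12.85 ± 1.10 (SE), adjusted p = 1.29e-11). Its near copy XCL2 was at 1044, 1119 and 1023 CPM at 36 h, against 0.213, 0.705 and 0.526 CPM at 0 h (log2 11.30 ± 0.98 (SE), adjusted p = 1.58e-11). CCL3 was at 157, 155 and 176 CPM at 36 h, against 0, 0.176 and 0.0376 CPM at 0 h, with 2 counts in all at rest (adjusted p = 3.21e-11). XCL1 and XCL2, and CCL3 and CCL4 with their CCL3L and CCL4L copies, are near-identical genes between which reads could have been split, so the level of each single copy is uncertain. CCL1 rose by 6.90 on the log2 scale. CCL5, at 21.7, 19.5 and 18.5 CPM at 36 h, and CCL20, at 18.0, 16.9 and 18.8 CPM, were called higher on 3 and 2 counts at rest (adjusted p = 1.18e-10 and 6.5e-08). IL8, the neutrophil attractant now called CXCL8, rose by 3.50 on the log2 scale. CXCL3 was the member called lower (-2.19), and CXCL10, an interferon-induced chemokine, was not called (0.86, adjusted p = 0.579).

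The lists of activation receptors and of inhibitory receptors of T cells both had more genes higher than lower at 36 h. Both lists also hold ligands, such as CD70, CD200 and CD274. Of 18 genes of the activation list, 12 were higher, 2 lower and 4 not called (median log2 change 2.22). Of 15 genes of the inhibitory list, 10 were higher, 1 lower and 4 not called (median 2.46). TNFRSF9, the costimulatory receptor 4-1BB, had 106, 94.2 and 117 CPM at 36 h and no count at 0 h, at least 1964-fold higher (adjusted p = 2.7e-15). CD69, a lectin that appears early on activated lymphocytes and retains them in tissue, was at 797, 725 and 927 CPM at 36 h, against 8.71, 8.46 and 8.53 CPM at 0 h, with no overlap (log2 6.57 ± 0.23 (SE), adjusted p = 1.21e-21). The interleukin 2 receptor chains IL2RA and IL2RB rose by 5.07 and 2.83 on the log2 scale, ICOS by 5.77 and CD44 by 5.16. TFRC, the transferrin receptor that supplies iron to dividing cells, went the other way, at 207, 189 and 203 CPM at 36 h, against 524, 529 and 511 CPM at 0 h (log2 -1.38 ± 0.14 (SE), adjusted p = 4.03e-10). CD200, which restrains myeloid cells through its receptor, was at 464, 435 and 487 CPM at 36 h, against 0.085, 0 and 0.301 CPM at 0 h (log2 11.29 ± 0.78 (SE), adjusted p = 6.36e-14). BTLA, an inhibitory receptor for TNFRSF14, was at 127, 122 and 147 CPM at 36 h, against 0.468, 0 and 0.0752 CPM at 0 h (log2 9.11 ± 0.63 (SE), adjusted p = 6.86e-14). Among further checkpoint genes, PDCD1 (PD-1) rose by 5.11, CD160 by 4.17 and CD274, which encodes the PD-1 ligand PD-L1, by 2.99. CTLA4 was at 3.94, 2.47 and 2.71 CPM at 36 h, against 0, 0.176 and 0.0376 CPM at 0 h, with 2 counts in all at rest (adjusted p = 2.23e-07). TIGIT and HAVCR2 (TIM-3) were not called, with -0.42 and 0.71. LAIR1, an inhibitory receptor for collagen, was lower at 35.7, 39.0 and 45.2 CPM at 36 h, against 118, 117 and 128 CPM at 0 h (log2 -1.60 ± 0.21 (SE), adjusted p = 1.13e-07).

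Of the 11 tested members of the SLAM family and its adaptors, 7 were higher, as SLAMF6 was, and 1 was lower. SLAMF1 was at 19.7, 17.6 and 16.1 CPM at 36 h, against 0.638, 0.352 and 0.789 CPM at 0 h (log2 4.72 ± 0.57 (SE), adjusted p = 2.49e-08). SLAMF7 was at 45.3, 40.8 and 44.8 CPM at 36 h, against 2.25, 2.82 and 2.18 CPM at 0 h (log2 4.24 ± 0.27 (SE), adjusted p = 7.1e-15). Several receptors of the family, SLAMF1 and SLAMF6 among them, signal through the small adaptor SAP, encoded by SH2D1A. SH2D1A was lower, at 51.4, 42.6 and 59.3 CPM at 36 h, against 216, 275 and 233 CPM at 0 h, with no overlap between the groups (log2 -2.24 ± 0.18 (SE), adjusted p = 4.25e-12). Its level at 24 h was 164, 159 and 73.1 CPM. CD48 and LY9 rose by 3.50 and 2.68, while CD244 and CD84 were not called (-0.26 and -0.16).

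**Figure D3:**
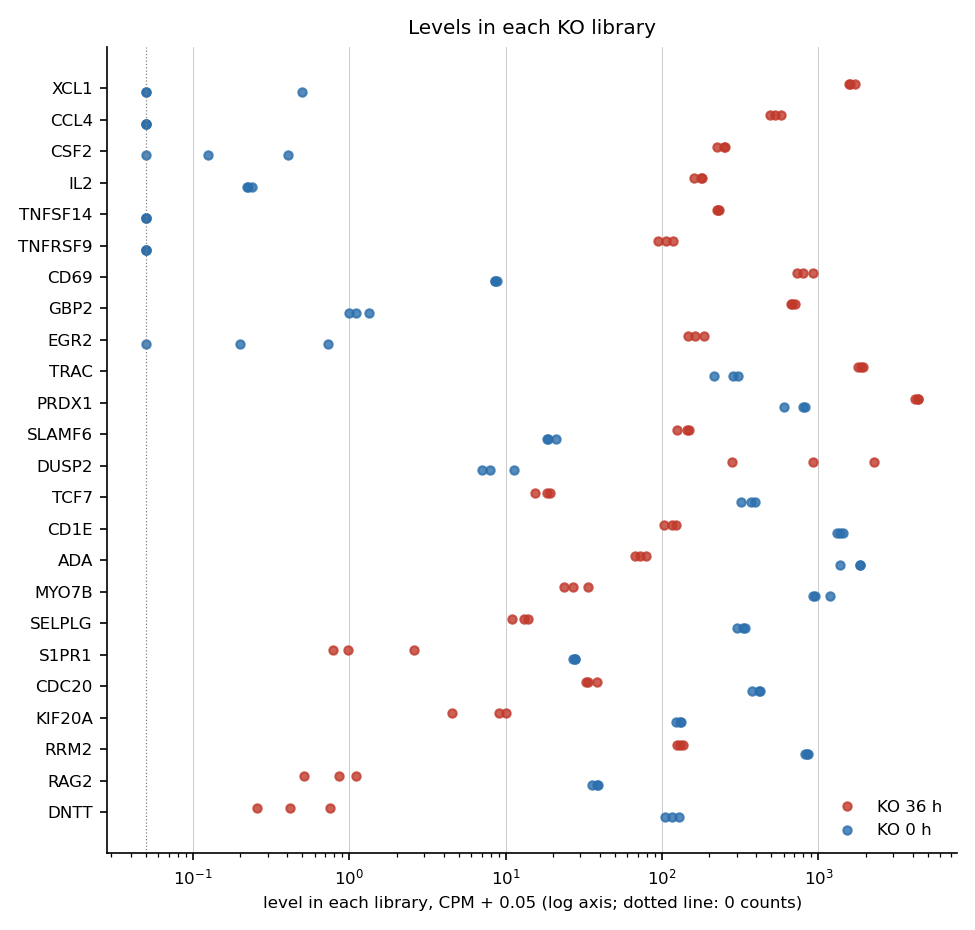
Level of 24 named genes in each of the 6 KO libraries (CPM plus 0.05 on a log axis; red, 36 h; blue, 0 h; 3 points a group, the dotted line marks 0 counts). The groups stand apart for each gene shown, as the rule for naming most of them required, and DUSP2 is the gene whose 36 h libraries spread most widely.

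Receptors for cytokines and for TNF ligands moved in both directions, with more rises than falls. Of 24 cytokine receptor genes, 14 were higher and 4 lower, and of 17 TNF receptor genes, 9 were higher and 4 lower. IL21R, the receptor for the helper cytokine interleukin 21, was at 85.4, 85.8 and 73.2 CPM at 36 h, against 1.19, 0.705 and 0.827 CPM at 0 h (log2 6.39 ± 0.27 (SE), adjusted p = 1.28e-19). TNFRSF1B, the second receptor for TNF, was at 53.5, 51.5 and 57.9 CPM at 36 h, against 0.893, 0.176 and 0.225 CPM at 0 h (log2 6.75 ± 0.40 (SE), adjusted p = 1.27e-15). TGFBR2, through which TGF-beta restrains T cells, was at 97.3, 93.3 and 87.5 CPM at 36 h, against 12.0, 13.4 and 12.2 CPM at 0 h (log2 2.90 ± 0.15 (SE), adjusted p = 2.39e-17). IL7R, the receptor for the survival cytokine of resting T cells, fell to 1.42, 1.44 and 1.12 CPM at 36 h, against 12.8, 14.1 and 15.6 CPM at 0 h (log2 -3.43 ± 0.30 (SE), adjusted p = 2.14e-11). TNFRSF8 (CD30) was lower at 8.92, 10.6 and 6.62 CPM at 36 h, against 19.0, 19.7 and 17.7 CPM at 0 h (log2 -1.11 ± 0.19 (SE), adjusted p = 1.48e-05).

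Among transcription factors that T cell activation induces early, the EGR and NR4A genes were higher at 36 h, and the AP-1 and NFAT lists held calls in both directions. All 9 genes of the list of EGR and NR4A factors and the NAB corepressors of EGR proteins were higher (median log2 change 5.19). EGR2, a zinc finger factor tied to anergy, was at 146, 162 and 185 CPM at 36 h, against 0.68, 0 and 0.15 CPM at 0 h (log2 8.82 ± 0.43 (SE), adjusted p = 5.5e-18). EGR1 was at 259, 274 and 292 CPM at 36 h, against 1.4, 1.06 and 1.35 CPM at 0 h (log2 7.68 ± 0.23 (SE), adjusted p = 2.38e-23). Of 15 AP-1 and BATF genes, 8 were higher and 2 lower. MAFF, a small partner of AP-1 factors, was at 17.4, 18.1 and 19.4 CPM at 36 h, against 0.553, 0.705 and 1.24 CPM at 0 h (log2 4.37 ± 0.54 (SE), adjusted p = 3.3e-08). JUNB was at 133, 158 and 175 CPM at 36 h, against 25.4, 32.4 and 36.5 CPM at 0 h (log2 2.31 ± 0.20 (SE), adjusted p = 1.58e-11), while JUN itself was lower (-0.98) and FOSB and BATF were not called (-0.58 and -0.24). Among 14 genes of NFAT and calcineurin, 6 were higher and 1 lower. NFATC1, which amplifies its own transcription, was at 291, 317 and 336 CPM at 36 h, against 28.3, 34.5 and 31.6 CPM at 0 h (log2 3.33 ± 0.29 (SE), adjusted p = 2.04e-11). NFAT5 was at 119.8, 133 and 120.1 CPM at 36 h, against 48.5, 43.2 and 36.8 CPM at 0 h (log2 1.54 ± 0.13 (SE), adjusted p = 6.27e-12). RCAN3, a regulator of calcineurin, was lower at 7.63, 10.7 and 11.3 CPM at 36 h, against 35.1, 25.7 and 29.4 CPM at 0 h (log2 -1.61 ± 0.17 (SE), adjusted p = 1.3e-09).

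Genes of NF-kB and of feedback on MAP kinases, the pathways that PMA switches on, were higher at 36 h where called. Of 21 NF-kB pathway genes, 17 were higher and none lower (median log2 change 1.36), among them NFKB2, RELB and the inhibitor TNFAIP3 (A20) at 3.20, 3.12 and 2.67. IER3, an early response gene against cell death, was at 173, 238 and 156 CPM at 36 h, against 1.36, 1.41 and 1.5 CPM at 0 h (log2 7.04 ± 0.31 (SE), adjusted p = 6.61e-19). TRAF1, an adaptor of TNF receptors, was at 187, 191 and 176 CPM at 36 h, against 3.32, 4.23 and 2.74 CPM at 0 h (log2 5.84 ± 0.24 (SE), adjusted p = 7.36e-20). Of 15 genes of feedback on MAP kinases, 10 were higher and none lower (median 2.95). DUSP2, a phosphatase of nuclear MAP kinases, was at 279.8, 917 and 2255 CPM at 36 h, against 7.91, 11.3 and 7.03 CPM at 0 h. The 36 h libraries lay apart from each other in this gene, though none came near the 0 h libraries (log2 7.13 ± 0.50 (SE), adjusted p = 9.74e-14). DUSP1, a related phosphatase, had the same order over the 36 h libraries, at 18.9, 39.1 and 44.8 CPM at 36 h, against 2.17, 3.52 and 4.51 CPM at 0 h (log2 3.34 ± 0.42 (SE), adjusted p = 5.29e-08). SPRY4, a Sprouty inhibitor of Ras signalling, was at 45.8, 44.1 and 42.6 CPM at 36 h, against 0.085, 1.41 and 0.526 CPM at 0 h (log2 6.63 ± 0.28 (SE), adjusted p = 1.57e-19).

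Most genes of cytotoxic granules were higher at 36 h. Of 19 members, 13 were higher, 1 lower and 5 not called (median log2 change 1.48). GZMB (granzyme B), a serine protease of the granules, was at 55.6, 61.8 and 69.2 CPM at 36 h, against 0.893, 1.41 and 1.05 CPM at 0 h (log2 5.91 ± 0.46 (SE), adjusted p = 1.05e-12). CTSW, the cathepsin of cytotoxic lymphocytes, was at 453, 431 and 423 CPM at 36 h, against 18.9, 14.8 and 16.9 CPM at 0 h (log2 4.67 ± 0.16 (SE), adjusted p = 7.56e-22). GZMA and the pore protein gene PRF1 rose by 4.60 and 3.03. CTSC, the protease that matures granzymes, was lower at 136, 122 and 127 CPM at 36 h, against 177, 174 and 194 CPM at 0 h (log2 -0.50 ± 0.11 (SE), adjusted p = 0.000418). Among 21 factors of helper and effector cells, 8 were higher and 3 lower. TBX21 (T-bet), the factor of type 1 helper cells, was at 19.3, 20.6 and 24.0 CPM at 36 h, against 0.0425, 0 and 0.15 CPM at 0 h (log2 7.80 ± 0.59 (SE), adjusted p = 4.7e-13). It had 5 counts in all at rest, so the size of its change is uncertain. ZNF683 (HOBIT), a factor of tissue-resident lymphocytes, was at 83.7, 82.5 and 76.6 CPM at 36 h, against 0.213, 0 and 0.564 CPM at 0 h (log2 7.82 ± 0.53 (SE), adjusted p = 3.19e-14). GATA3, the factor of type 2 helper cells, was not called (-0.43, adjusted p = 0.123), nor were EOMES and FOXP3 (-0.34 and 0.84). IKZF2 (Helios) was lower at 23.4, 25.8 and 20.5 CPM at 36 h, against 82.1, 102 and 79.0 CPM at 0 h (log2 -1.91 ± 0.25 (SE), adjusted p = 1.23e-07).

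Most interferon-stimulated genes were higher at 36 h. Of 45 tested, 39 were higher, 30 of them at least 2-fold, and 1 was lower (median log2 change 1.43), and their summed level was 6750 to 7470 CPM at 36 h, against 1630 to 1660 CPM at 0 h. GBP2, a guanylate-binding protein induced by interferon gamma, was at 675, 664 and 708 CPM at 36 h, against 1.28, 1.06 and 0.939 CPM at 0 h (log2 9.28 ± 0.33 (SE), adjusted p = 2.65e-21). GBP5, of the same family, was at 364, 353 and 372 CPM at 36 h, against 2.13, 2.64 and 2.07 CPM at 0 h (log2 7.38 ± 0.25 (SE), adjusted p = 4.32e-22). Among further members, IFIT3 and OAS1 rose by 3.20 and 3.15, ISG15 by 0.75, and MX1 and RSAD2 were not called (-0.83 and 0.12). CMPK2, a mitochondrial kinase induced by interferon, was lower at 5.91, 8.64 and 9.99 CPM at 36 h, against 11.8, 12.2 and 16.4 CPM at 0 h (log2 -0.72 ± 0.27 (SE), adjusted p = 0.0315), and this call was lost without 0 h replicate 3 (adjusted p = 0.226) and without 36 h replicate 4 or 5 (adjusted p = 0.170 and 0.0592).

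The machinery that presents peptides on MHC class I rose with them, with 16 of 17 genes higher, none lower and a median log2 change of 1.52. B2M, the light chain of class I molecules, was at 5259, 4593 and 5657 CPM at 36 h, against 1726, 1923 and 1893 CPM at 0 h (log2 1.48 ± 0.11 (SE), adjusted p = 7.11e-13). HLA-E, which inhibits natural killer cells, was at 1000.1, 987 and 1056 CPM at 36 h, against 91.2, 79.8 and 90.9 CPM at 0 h (log2 3.53 ± 0.11 (SE), adjusted p = 2.56e-23). HLA-F was at 107, 112 and 99.4 CPM at 36 h, against 6.04, 5.64 and 5.82 CPM at 0 h (log2 4.17 ± 0.14 (SE), adjusted p = 2.97e-22). HLA-B and HLA-C rose by 2.88 and 2.01; these genes are similar in sequence and reads could have been split between them. NLRC5, the activator of class I genes, rose by 1.82, and the transporter subunit TAP1 by 2.06. The constitutive proteasome moved less, with 8 of 26 subunits higher and 3 lower, and 5 higher without 0 h replicate 1, 0 h replicate 2 or 36 h replicate 6. PSMC4 was at 409, 372 and 418 CPM at 36 h, against 266, 239.6 and 266 CPM at 0 h (log2 0.63 ± 0.092 (SE), adjusted p = 8.48e-07). PSMC6 was at 139.8, 129.6 and 153 CPM at 36 h, against 95.7, 111 and 107 CPM at 0 h (log2 0.43 ± 0.10 (SE), adjusted p = 0.00091). PSMA6 was at 529, 454 and 525 CPM at 36 h, against 687, 668 and 743 CPM at 0 h (log2 -0.48 ± 0.10 (SE), adjusted p = 0.000285).

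The B2M promoter is printed for the interferon-stimulated element it holds (RefSeq, GRCh38.p14, chr15:44711267-44711566, plus strand), in capitals, searched on either strand; it can overlap GGAAA.
B2M: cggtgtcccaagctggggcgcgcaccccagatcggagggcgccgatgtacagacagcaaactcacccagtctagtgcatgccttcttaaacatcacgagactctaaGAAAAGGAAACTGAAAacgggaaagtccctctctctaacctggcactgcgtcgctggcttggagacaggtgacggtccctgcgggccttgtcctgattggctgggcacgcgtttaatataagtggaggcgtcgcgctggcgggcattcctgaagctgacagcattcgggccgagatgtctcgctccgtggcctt
This element was held by 63.6% of 33 interferon-stimulated genes with a window and 64.3% of 14 genes of class I presentation, against 3.02% of all 11600 tested genes with a window. Genes known to respond to interferon were picked for these lists, so the share describes the lists and not the change at 36 h. Of the windows of genes called higher 4.05% held it, and of those called lower 2.31%.

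STAT and SOCS genes, which carry and end cytokine signals, moved in both directions, with 13 of 22 higher and 6 lower. PIM3, a kinase induced by STAT factors, was at 53.3, 90.6 and 99.2 CPM at 36 h, against 17.5, 21.0 and 19.99 CPM at 0 h (log2 2.07 ± 0.26 (SE), adjusted p = 7.75e-08). PIM2, its relative, was lower at 19.995, 22.9 and 26.3 CPM at 36 h, against 40.5, 30.7 and 41.3 CPM at 0 h (log2 -0.71 ± 0.15 (SE), adjusted p = 0.00029). SOCS1 rose by 2.21 and SOCS2 fell by 2.80 on the log2 scale, and SOCS3 was not called (0.78).

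Of 16 markers of recombination and immature thymocytes, 10 were lower at 36 h, 2 higher and 4 not called (median log2 change -1.49). DNTT, the terminal transferase that adds bases at receptor gene junctions, was at 0.369, 0.206 and 0.697 CPM at 36 h, against 116, 105 and 128 CPM at 0 h, with no overlap (log2 -7.99 ± 0.38 (SE), adjusted p = 3.28e-18). RAG2, a subunit of the recombinase, was at 1.05, 0.463 and 0.813 CPM at 36 h, against 38.7, 35.4 and 38.3 CPM at 0 h (log2 -5.60 ± 0.40 (SE), adjusted p = 9.81e-14), and RAG1, the other subunit, had a log2 change of -4.46. ADA, the adenosine deaminase whose loss causes immune deficiency, was at 71.9, 66.6 and 78.4 CPM at 36 h, against 1377, 1830.2 and 1849 CPM at 0 h (log2 -4.54 ± 0.22 (SE), adjusted p = 6.42e-18). CD1E, a lipid-presenting molecule of cortical thymocytes, was at 116, 103 and 122 CPM at 36 h, against 1366, 1318 and 1430.2 CPM at 0 h (log2 -3.59 ± 0.13 (SE), adjusted p = 2.27e-21). ARPP21, a phosphoprotein gene of immature thymocytes, was at 3.81, 5.96 and 6.89 CPM at 36 h, against 131, 119 and 125 CPM at 0 h (log2 -4.47 ± 0.24 (SE), adjusted p = 5.22e-17). The list's glycosyltransferase gene ST6GALNAC4 was higher at 27.1, 25.9 and 25.5 CPM at 36 h, against 9.61, 11.4 and 9.92 CPM at 0 h (log2 1.36 ± 0.17 (SE), adjusted p = 7.8e-08). DNTT had 2.05, 1.33 and 1.23 CPM at 24 h and RAG2 1.13, 0.422 and 0.938 CPM; those libraries share the title letter of the 0 h group.

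Transcription factors of thymocytes and T cell leukaemia were mostly lower too, 14 of 26 with 4 higher (median log2 change -0.987). TCF7 (TCF-1), the factor of early T cells and their memory, was at 19.0, 15.4 and 18.3 CPM at 36 h, against 390.2, 319.9 and 368 CPM at 0 h (log2 -4.36 ± 0.26 (SE), adjusted p = 1.82e-15). TCF3 (E2A), which drives RAG genes in thymocytes, was at 25.3, 25.4 and 21.6 CPM at 36 h, against 167, 151 and 149 CPM at 0 h (log2 -2.69 ± 0.17 (SE), adjusted p = 5.06e-15). NOTCH1, NOTCH3 and BCL11B were lower by log2 changes of -1.40, -2.23 and -1.97, and TAL1, the oncogene of this leukaemia type, by -0.43. LEF1 and IKZF1 were not called (0.13 and 0.06). ZBTB16 (PLZF), a factor of innate-like T cells, rose to 17.2, 27.0 and 25.1 CPM at 36 h, against 0.085, 0 and 0 CPM at 0 h, with 2 counts in all at rest (adjusted p = 7.12e-17).

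Signalling genes of the T cell receptor were split, with 10 of 28 higher and 10 lower. The kinase FYN was at 123, 116 and 102 CPM at 36 h, against 17.5, 17.1 and 19.3 CPM at 0 h (log2 2.65 ± 0.21 (SE), adjusted p = 1.85e-12). LCK, the kinase that starts receptor signalling, was lower (-0.78), as was the receptor's zeta chain gene CD247 (-0.67). THEMIS, a regulator of receptor signalling in thymocytes, was at 9.41, 14.5 and 13.8 CPM at 36 h, against 100.3, 94.6 and 101 CPM at 0 h (log2 -2.96 ± 0.27 (SE), adjusted p = 3.83e-11). TRAC, the constant region of the receptor's alpha chain, was outside this list and among the genes with the largest gain in level, at 1879.9, 1782 and 1926 CPM at 36 h, against 285, 215 and 306 CPM at 0 h (log2 2.79 ± 0.11 (SE), adjusted p = 9.27e-20). Of 24 genes of calcium entry and protein kinase C, 4 were higher and 11 lower. RASGRP2, a calcium-regulated exchange factor of small GTPases, was at 1.35, 1.49 and 1.12 CPM at 36 h, against 27.8, 31.5 and 30.5 CPM at 0 h (log2 -4.51 ± 0.41 (SE), adjusted p = 4.37e-11). The calcium pump gene ATP2B4 was at 27.7, 29.3 and 26.1 CPM at 36 h, against 181, 129 and 155 CPM at 0 h (log2 -2.49 ± 0.27 (SE), adjusted p = 3.04e-09). The calcium channel gene ITPR1 rose to 124, 121 and 95.2 CPM at 36 h, against 34.5, 29.9 and 27.8 CPM at 0 h (log2 1.88 ± 0.17 (SE), adjusted p = 5.43e-11).

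Genes by which lymphocytes travel fell more often than they rose, 15 against 8 of 33 (median log2 change -0.493). S1PR1, the receptor that leads T cells out of lymph nodes, was at 2.52, 0.925 and 0.735 CPM at 36 h, against 26.7, 27.7 and 27.5 CPM at 0 h (log2 -4.37 ± 0.34 (SE), adjusted p = 1.02e-12). SELPLG (PSGL-1), the ligand by which they roll on vessel walls, was at 13.8, 13.0 and 10.9 CPM at 36 h, against 329, 299.8 and 341 CPM at 0 h (log2 -4.69 ± 0.32 (SE), adjusted p = 5.7e-14). The chemokine receptors CXCR4, CCR9 and CCR8 were lower, with log2 changes of -2.89, -3.94 and -3.72, and so was KLF2, the factor that drives S1PR1 (-4.88, on 4 counts at 36 h). CCR7, the lymph node homing receptor, was higher at 19.6, 13.3 and 17.6 CPM at 36 h, against 7.4, 4.58 and 5.79 CPM at 0 h (log2 1.46 ± 0.34 (SE), adjusted p = 0.000768).

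Genes of cell division were lower with hardly an exception. All 34 genes of G2 and mitosis were lower, each at least 2-fold, with a median log2 change of -2.9 and a summed level of 970 to 1130 CPM at 36 h, against 7250 to 7570 CPM at 0 h. Of 36 genes of S phase, 35 were lower, 33 at least 2-fold (median -1.58). KIF20A, a kinesin of cytokinesis, was at 10.0, 4.47 and 8.94 CPM at 36 h, against 129.7, 123 and 132 CPM at 0 h (log2 -4.04 ± 0.20 (SE), adjusted p = 1.77e-17). CDC20, the activator of the anaphase-promoting complex, was at 38.5, 33.3 and 32.4 CPM at 36 h, against 423, 377 and 418 CPM at 0 h (log2 -3.55 ± 0.14 (SE), adjusted p = 5.2e-20). RRM2, the subunit of ribonucleotide reductase that limits DNA synthesis, was at 135, 129 and 124 CPM at 36 h, against 839, 819 and 856 CPM at 0 h (log2 -2.69 ± 0.11 (SE), adjusted p = 1.1e-19). E2F2, which drives S phase genes, was at 6.83, 7.2 and 4.92 CPM at 36 h, against 50.3, 41.6 and 45.8 CPM at 0 h (log2 -2.87 ± 0.21 (SE), adjusted p = 2.08e-13). CCNE1, the cyclin of S phase entry, was the member not called (1.02, adjusted p = 0.0927). Genes of microtubules were among the largest losses in level. The tubulin gene TUBB was at 1512, 1384 and 1467 CPM at 36 h, against 3241, 2930.3 and 3374 CPM at 0 h (adjusted p = 2.86e-12). TUBA1B, another tubulin gene, was at 712, 657 and 661 CPM at 36 h, against 2414, 2147 and 2589.6 CPM at 0 h (adjusted p = 1.11e-15). The tubulin-binding STMN1 was at 334, 319.9 and 336 CPM at 36 h, against 1303, 1303 and 1391 CPM at 0 h (adjusted p = 1.74e-17).

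The promoters of CDC20 and KIF20A are printed for the CCAAT box and the cell cycle homology region (CHR) known from genes of mitosis (RefSeq, GRCh38.p14; CDC20 at chr1:43358731-43359030, plus strand; KIF20A at chr5:138178862-138179161, plus strand). Capitals mark CCAAT and TTTGAA on either strand.
CDC20: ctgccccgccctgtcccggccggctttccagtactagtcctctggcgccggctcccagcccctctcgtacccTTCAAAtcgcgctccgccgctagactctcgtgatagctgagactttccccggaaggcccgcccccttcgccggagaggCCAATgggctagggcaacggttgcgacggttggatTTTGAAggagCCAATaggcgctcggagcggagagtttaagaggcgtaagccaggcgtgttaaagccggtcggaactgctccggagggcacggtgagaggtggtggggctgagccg
KIF20A: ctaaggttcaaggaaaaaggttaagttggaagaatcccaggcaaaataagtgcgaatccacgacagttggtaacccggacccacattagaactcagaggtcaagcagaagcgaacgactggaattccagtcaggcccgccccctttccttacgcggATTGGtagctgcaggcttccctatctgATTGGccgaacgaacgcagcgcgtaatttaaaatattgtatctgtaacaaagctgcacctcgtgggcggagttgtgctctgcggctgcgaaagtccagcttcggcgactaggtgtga
The CDC20 window held 2 CCAAT boxes and 2 CHR letters, and the KIF20A window 2 CCAAT boxes and none of the CHR letters. Among 28 genes of G2 and mitosis with a window, 82.1% held CCAAT and 60.7% held TTTGAA, against 36% and 10.4% of all tested genes with a window. Among the 201 windows of genes at least 4-fold lower with 10 CPM or more, 49.3% held CCAAT and 33.3% TTTGAA. The 254 windows of genes as much higher held them in 29.9% and 11.4%. S phase genes held CCAAT in 61.3% of 31 windows and TTTGAA in 3.23%.

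Cyclins and inhibitors of G1 did not move as a block: 4 of 18 were higher and 12 lower. CCND1 (cyclin D1) rose to 33.9, 37.5 and 38.1 CPM at 36 h, against 0.553, 0 and 0.0376 CPM at 0 h (log2 7.16 ± 0.38 (SE), adjusted p = 8.2e-17). CDKN1A (p21), which blocks cyclin-dependent kinases, had a log2 change of 3.10. The related inhibitor CDKN2D was lower at 5.04, 4.11 and 3.64 CPM at 36 h, against 33.6, 29.6 and 36.4 CPM at 0 h (log2 -2.98 ± 0.21 (SE), adjusted p = 1.67e-13). CDKN2C, of the same family, was at 9.04, 7.71 and 10.6 CPM at 36 h, against 24.1, 29.9 and 38.9 CPM at 0 h (log2 -1.76 ± 0.30 (SE), adjusted p = 1.12e-05). MYC, the driver of growth, was at 122, 116 and 124 CPM at 36 h, against 239, 227 and 242 CPM at 0 h. Its call was narrow in the fit of all 30 libraries (log2 -0.97 ± 0.34 (SE), adjusted p = 0.0247). The call was lost with DESeq2's Wald test (adjusted p = 0.071) and without any 1 of 5 libraries, 0 h replicate 2 being the exception (adjusted p = 0.0573 to 0.0706). It was kept with the 6 libraries fitted alone. The fit of all libraries shares 1 estimate of the spread, and the KO libraries of 24 h had 68.1, 71.5 and 145.7 CPM of MYC. MXD3, an antagonist of MYC expressed in S phase, was at 5.6, 5.19 and 4.61 CPM at 36 h, against 37.4, 41.0 and 33.0 CPM at 0 h (log2 -2.85 ± 0.22 (SE), adjusted p = 1.08e-12). MXD1 was higher at 14.1, 16.1 and 17.1 CPM at 36 h, against 11.3, 10.4 and 10.6 CPM at 0 h (log2 0.54 ± 0.15 (SE), adjusted p = 0.00414).

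**Figure D4:**
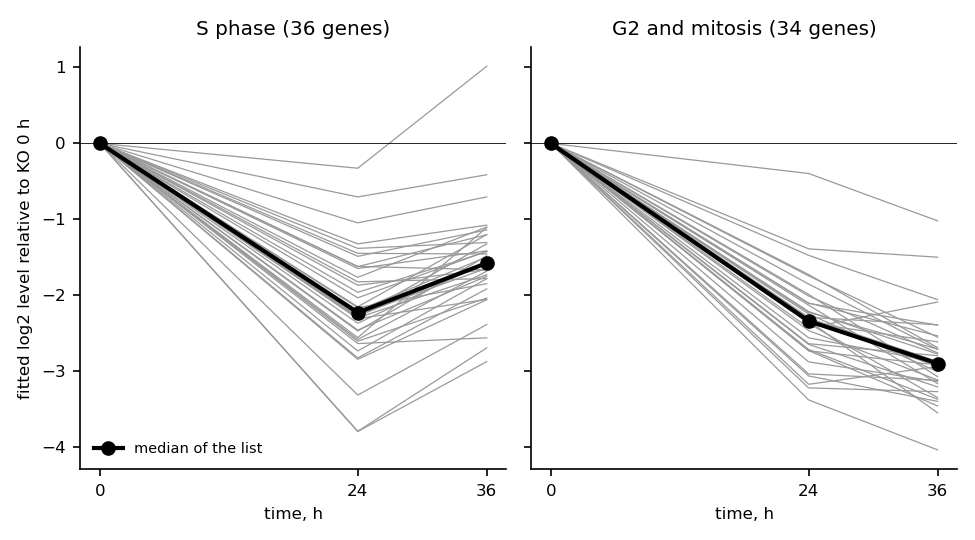
Fitted log2 level of each tested S phase gene (left, 36 genes) and each gene of G2 and mitosis (right, 34 genes) in KO cells at 0, 24 and 36 h relative to 0 h (grey lines, 1 per gene; black, median of the list). The median of the S phase genes lies higher at 36 h than at 24 h, while that of G2 and mitosis lies lower.

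Between 24 h and 36 h, S phase genes and genes of mitosis moved apart. Between 36 h and 24 h in KO cells, 878 genes (4.07% of those tested) were higher at 36 h and 723 (3.35%) were lower. This comparison and that with rest share the 36 h libraries, and its title letters differ in the same way. Of 36 S phase genes, 22 were higher at 36 h than at 24 h and none lower (18 to 24 higher over all alternatives), while of 34 genes of G2 and mitosis 21 were lower and none higher (15 to 21). RRM2 was at 135, 129 and 124 CPM at 36 h, against 59.7, 56.4 and 65.3 CPM at 24 h (log2 1.10 ± 0.11 (SE), adjusted p = 3.13e-08). CDC20 was at 38.5, 33.3 and 32.4 CPM at 36 h, against 76.3, 79.7 and 85.2 CPM at 24 h (log2 -1.21 ± 0.13 (SE), adjusted p = 3.22e-07). SERPINA1, a secreted protease inhibitor, was at 265, 259.9 and 275 CPM at 36 h, against 19.2, 21.2 and 43.0 CPM at 24 h (log2 3.26 ± 0.29 (SE), adjusted p = 7.12e-09); at 0 h it had 0.17, 0 and 0 CPM. ITGAD, an integrin subunit of leukocytes, was at 66.3, 70.0 and 60.3 CPM at 36 h, against 6.65, 10.8 and 14.0 CPM at 24 h (log2 2.64 ± 0.27 (SE), adjusted p = 1.04e-07). PLB1, a phospholipase gene, was at 37.2, 32.4 and 33.2 CPM at 36 h, against 2.92, 3.98 and 8.64 CPM at 24 h (log2 2.71 ± 0.32 (SE), adjusted p = 9.97e-07). The others of the 6 largest rises were DUSP1, DUSP2 and TSR3, a ribosomal RNA modification gene. TSR3 had 9.97, 17.6 and 19.5 CPM at 36 h, against 1.78, 3.86 and 1.58 CPM at 24 h (log2 2.72 ± 0.38 (SE), adjusted p = 1.99e-05). Levels of DUSP1, DUSP2 and TSR3 climbed from replicate 4 to replicate 6 of the 36 h group. They also climbed from replicate 1 to replicate 3 of WT cells at 36 h, as in DUSP2 at 197, 241 and 498 CPM. The cause of this order was not tested.

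Replicate 12 of the 24 h group stood between the others and the 36 h libraries in the genes with the largest late falls. VIM, the intermediate filament vimentin, was at 65.7, 79.1 and 67.5 CPM at 36 h, against 354, 353 and 223 CPM at 24 h (log2 -2.13 ± 0.18 (SE), adjusted p = 4.68e-09), and had 281, 244 and 287 CPM at 0 h. MYO1G, a myosin of blood cells, was at 40.1, 34.0 and 39.2 CPM at 36 h, against 193, 166 and 43.6 CPM at 24 h (log2 -1.83 ± 0.32 (SE), adjusted p = 0.000301). IL9R, a cytokine receptor, was at 14.6, 13.5 and 11.2 CPM at 36 h, against 57.2, 56.1 and 21.9 CPM at 24 h (log2 -1.78 ± 0.29 (SE), adjusted p = 0.000117). RCBTB2 showed the same order, at 13.7, 11.1 and 16.2 CPM at 36 h, against 71.1, 70.8 and 19.0 CPM at 24 h (log2 -1.96 ± 0.42 (SE), adjusted p = 0.00277). ALDH1A2, a retinoic acid enzyme, was at 2.77, 3.29 and 2.05 CPM at 36 h, against 14.0, 12.7 and 4.89 CPM at 24 h (log2 -1.97 ± 0.36 (SE), adjusted p = 0.000489). AMPH was at 4.25, 4.83 and 3.25 CPM at 36 h, against 14.8, 13.7 and 8.0 CPM at 24 h (log2 -1.57 ± 0.27 (SE), adjusted p = 0.000231). Without that library 1580 genes were called between 36 h and 24 h, 1195 of them among the 1601 called with it. The count was 774 without replicate 10 of 24 h, 977 without replicate 11, 1047 without replicate 5 of 36 h and 937 without replicate 6.

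Most genes of the unfolded protein response and of amino acid supply were called higher at 36 h. Of 25 genes of the unfolded protein response, 16 were higher and 3 lower (median log2 change 0.416), and of 30 genes of the amino acid response and tRNA charging, 24 were higher and 1 lower. EIF2AK3 (PERK), a sensor of unfolded protein, was at 36.9, 39.9 and 36.3 CPM at 36 h, against 3.78, 4.76 and 4.81 CPM at 0 h (log2 3.10 ± 0.28 (SE), adjusted p = 3.35e-11). EDEM1, which sends misfolded proteins to degradation, was at 285, 267 and 228 CPM at 36 h, against 108, 110.3 and 102 CPM at 0 h (log2 1.29 ± 0.13 (SE), adjusted p = 3.92e-10), and SEL1L, of the same route, was lower at 58.5, 52.2 and 40.7 CPM at 36 h, against 73.8, 83.7 and 61.6 CPM at 0 h (log2 -0.53 ± 0.21 (SE), adjusted p = 0.0457); the SEL1L call was lost with DESeq2's size factors (adjusted p = 0.060), without 0 h replicate 1 or 2 and without 36 h replicate 5 or 6 (adjusted p = 0.0777 to 0.233). WARS, a tRNA synthetase that interferon gamma also induces, was at 1448, 1374 and 1526 CPM at 36 h, against 173, 160.1 and 172 CPM at 0 h (log2 3.11 ± 0.15 (SE), adjusted p = 4.07e-18). CHAC1, a target of the stress factor ATF4, was at 32.9, 35.1 and 42.6 CPM at 36 h, against 6.84, 5.99 and 5.49 CPM at 0 h (log2 2.59 ± 0.24 (SE), adjusted p = 9.35e-11). PHGDH, the entry enzyme of serine synthesis, was lower at 177, 169 and 181 CPM at 36 h, against 492, 499 and 526 CPM at 0 h (log2 -1.52 ± 0.12 (SE), adjusted p = 3.24e-12). Of 17 cytosolic and mitochondrial heat shock protein genes, 5 were lower, 2 higher and 10 not called (9 lower and 4 higher with the 6 libraries fitted alone). HSP90AA1 was at 749, 781 and 733 CPM at 36 h, against 1618, 1517 and 1694 CPM at 0 h (log2 -1.09 ± 0.095 (SE), adjusted p = 1.7e-11). DNAJB1 was at 214, 191 and 218 CPM at 36 h, against 387, 341 and 365 CPM at 0 h (log2 -0.81 ± 0.096 (SE), adjusted p = 1.71e-08). BAG3 was higher at 25.9, 29.8 and 31.5 CPM at 36 h, against 19.5, 20.3 and 18.4 CPM at 0 h (log2 0.59 ± 0.16 (SE), adjusted p = 0.00385).

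Of 55 ribosomal protein genes, 2 were higher and 1 lower, and their count moved with the fit: 12 were higher when the 6 libraries were fitted alone and 10 with no filter on low counts. RPL6 was at 1195, 1029.6 and 1169 CPM at 36 h, against 853, 756 and 881 CPM at 0 h (log2 0.45 ± 0.16 (SE), adjusted p = 0.0232). RPL23 was at 829.7, 823 and 775 CPM at 36 h, against 628, 517 and 652 CPM at 0 h (log2 0.43 ± 0.15 (SE), adjusted p = 0.0174). RPSA was at 611, 716 and 560.3 CPM at 36 h, against 769, 779 and 827 CPM at 0 h (log2 -0.33 ± 0.12 (SE), adjusted p = 0.027). The calls of RPL6 and RPL23 were lost without 0 h replicate 2 (adjusted p = 0.101 and 0.113), that of RPL6 also without 36 h replicate 4 or 6, and that of RPSA without 0 h replicate 1 or 3 and without 36 h replicate 4 or 6 (adjusted p = 0.0628 to 0.180). Among 27 genes of ribosome assembly, 6 were higher and 3 lower. GAR1 was at 65.9, 65.3 and 63.0 CPM at 36 h, against 42.0, 43.7 and 45.7 CPM at 0 h (log2 0.56 ± 0.13 (SE), adjusted p = 0.000665). NOB1 was at 100, 98.9 and 103 CPM at 36 h, against 74.8, 63.4 and 77.9 CPM at 0 h (log2 0.48 ± 0.15 (SE), adjusted p = 0.0109), and UBTF, a factor of ribosomal RNA transcription, was lower at 88.8, 97.6 and 83.4 CPM at 36 h, against 189.8, 141 and 170.4 CPM at 0 h (log2 -0.90 ± 0.11 (SE), adjusted p = 6.14e-08). With any 1 of the 6 libraries left out, the count called higher was 1 to 4.

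Metabolic lists held calls in both directions, beside 18.6% higher and 18% lower over all genes. Of 27 genes of glycolysis and glucose uptake, 9 were higher and 6 lower. SLC2A3, a high-affinity glucose transporter, was at 72.7, 68.8 and 83.6 CPM at 36 h, against 12.3, 9.34 and 9.39 CPM at 0 h (log2 2.84 ± 0.14 (SE), adjusted p = 2.32e-17). PKM, the pyruvate kinase, was at 3206, 2844 and 2778 CPM at 36 h, against 1181, 1008 and 1155 CPM at 0 h (log2 1.40 ± 0.10 (SE), adjusted p = 3.02e-13). GAPDH was lower at 3262, 3198 and 3118 CPM at 36 h, against 4909.7, 4344 and 5017 CPM at 0 h (log2 -0.58 ± 0.085 (SE), adjusted p = 1.14e-06), and so was ENO2 at 57.3, 59.8 and 55.9 CPM at 36 h, against 158, 113 and 160 CPM at 0 h (log2 -1.33 ± 0.13 (SE), adjusted p = 2.03e-10). Of 46 nuclear genes of oxidative phosphorylation, 8 were higher and 11 lower (7 lower without 0 h replicate 3), near the shares of all genes. UQCRC1 was at 465, 410.2 and 446 CPM at 36 h, against 646, 726 and 653 CPM at 0 h (log2 -0.62 ± 0.085 (SE), adjusted p = 3.11e-07). NDUFA9 was at 189, 153 and 182 CPM at 36 h, against 244, 229 and 266 CPM at 0 h (log2 -0.50 ± 0.10 (SE), adjusted p = 0.00019). ATP5D was higher at 132, 150.1 and 134 CPM at 36 h, against 23.2, 26.4 and 62.3 CPM at 0 h (log2 1.87 ± 0.46 (SE), adjusted p = 0.00145), with 1 of the 0 h libraries well above the other two. Fatty acid genes were mostly lower, 8 of 14 with 2 higher. SREBF1, their regulator, was at 9.41, 15.1 and 14.8 CPM at 36 h, against 53.2, 72.9 and 58.8 CPM at 0 h (log2 -2.22 ± 0.27 (SE), adjusted p = 3.69e-08). FADS1, a desaturase, was at 100.2, 99.7 and 114 CPM at 36 h, against 256, 239 and 245 CPM at 0 h (log2 -1.24 ± 0.095 (SE), adjusted p = 8.52e-13). ACSL1, which activates fatty acids, was at 22.9, 21.9 and 26.9 CPM at 36 h, against 11.1, 10.9 and 14.1 CPM at 0 h (log2 0.97 ± 0.18 (SE), adjusted p = 4.15e-05). Of 28 cholesterol genes, 7 were higher and 6 lower, also near the shares of all genes. MSMO1 was at 376, 320 and 452 CPM at 36 h, against 132, 154 and 145 CPM at 0 h (log2 1.42 ± 0.14 (SE), adjusted p = 3.65e-10). TM7SF2 was at 133, 118 and 133 CPM at 36 h, against 55.8, 58.3 and 56.6 CPM at 0 h (log2 1.17 ± 0.11 (SE), adjusted p = 2.14e-10). LSS was at 113, 113 and 114 CPM at 36 h, against 330, 345 and 335 CPM at 0 h (log2 -1.57 ± 0.12 (SE), adjusted p = 1.86e-12).

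Mitochondrially encoded transcripts were lower where called, 6 of 13, with none higher. MT-ND1 was at 933, 1073 and 899 CPM at 36 h, against 1279, 1497 and 1565 CPM at 0 h (log2 -0.58 ± 0.15 (SE), adjusted p = 0.00168). MT-CO2 was at 2381, 2027 and 2417 CPM at 36 h, against 3109, 2729 and 3504 CPM at 0 h (log2 -0.45 ± 0.12 (SE), adjusted p = 0.00287); the MT-CO2 call was lost without 0 h replicate 3 (adjusted p = 0.0637), and without that library 2 of the 13 were called. The mitochondrial ribosomal RNAs had the largest losses in level of all named genes. MT-RNR2 was at 28284, 36980.4 and 30235 CPM at 36 h, against 58269, 51115 and 57274 CPM at 0 h (log2 -0.80 ± 0.12 (SE), adjusted p = 1.65e-06). MT-RNR1 was at 1572, 2291 and 1621 CPM at 36 h, against 4496, 3289.8 and 4464 CPM at 0 h (log2 -1.16 ± 0.17 (SE), adjusted p = 1.28e-06). MT-RNR2 had 51241, 50117 and 44479 CPM at 24 h.

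Genes of survival and arrest changed on both sides. Of 18 BCL2 family genes, 7 were higher and 3 lower. BCL2A1, which NF-kB induces and which holds off cell death, was at 48.7, 44.8 and 48.8 CPM at 36 h, against 0.425, 0 and 0.376 CPM at 0 h (log2 7.04 ± 0.46 (SE), adjusted p = 1.82e-14). BIK, which promotes death, was higher too, at 320.4, 302 and 328 CPM at 36 h, against 26.7, 34.7 and 29.5 CPM at 0 h (log2 3.41 ± 0.14 (SE), adjusted p = 1.03e-19). BID, which links death receptors to mitochondria, fell to 28.7, 24.4 and 29.4 CPM at 36 h, against 253, 339.6 and 264 CPM at 0 h (log2 -3.37 ± 0.16 (SE), adjusted p = 7.65e-18). Of 22 targets of p53 and genes of arrest, 11 were higher and 6 lower, in a line known to lack working p53. BTG1, an antiproliferative gene, was at 98.8, 114 and 121 CPM at 36 h, against 7.52, 10.0 and 11.05 CPM at 0 h (log2 3.56 ± 0.19 (SE), adjusted p = 7.29e-17). PLK3 was at 43.1, 69.0 and 75.2 CPM at 36 h, against 5.36, 4.05 and 7.1 CPM at 0 h (log2 3.43 ± 0.30 (SE), adjusted p = 2.01e-11). AEN, a nuclease, was at 48.6, 54.7 and 42.3 CPM at 36 h, against 102, 96.9 and 101 CPM at 0 h (log2 -1.05 ± 0.14 (SE), adjusted p = 3.48e-07). Of 23 genes of lysosomes and autophagy, 11 were higher and 5 lower. WIPI1 was at 15.5, 11.5 and 16.2 CPM at 36 h, against 4.42, 2.82 and 6.5 CPM at 0 h (log2 1.56 ± 0.25 (SE), adjusted p = 4.3e-06). The protease gene CTSB was at 276, 242 and 279.8 CPM at 36 h, against 113, 118 and 114 CPM at 0 h (log2 1.21 ± 0.12 (SE), adjusted p = 6.97e-10). The autophagy kinase gene ULK1 was lower at 19.0, 24.9 and 21.9 CPM at 36 h, against 42.2, 40.7 and 42.6 CPM at 0 h (log2 -0.93 ± 0.14 (SE), adjusted p = 9.14e-07).

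Outside the lists, several of the largest changes were in secreted and surface proteins. IL1RN, the antagonist of interleukin 1, had 90.6, 95.1 and 87.6 CPM at 36 h and no count at 0 h, at least 1695-fold higher (adjusted p = 1.2e-15). SDC4, a syndecan of the cell surface, had 71.1, 73.0 and 66.3 CPM at 36 h and no count at 0 h, at least 1305-fold higher (adjusted p = 4.25e-12). VCAM1, an adhesion molecule best known from vessel walls, had 17.2, 16.4 and 14.4 CPM at 36 h and no count at 0 h, at least 297-fold higher (adjusted p = 1.04e-13). SERPINA1 was higher against rest as well (log2 11.74 ± 0.55 (SE), adjusted p = 3.11e-18), on 4 counts at rest, so the size of its change is uncertain. The gain of PRDX1, a peroxidase against hydrogen peroxide, was the largest in CPM among named genes, at 4337, 4354 and 4149 CPM at 36 h, against 801, 599 and 825 CPM at 0 h (log2 2.53 ± 0.15 (SE), adjusted p = 1.28e-15). ITM2A, a membrane protein of activated thymocytes, was at 1916, 1643 and 2049 CPM at 36 h, against 336, 381 and 364 CPM at 0 h (log2 2.38 ± 0.15 (SE), adjusted p = 4.46e-15). The nuclear RNA MALAT1 was at 5046, 4503 and 5643 CPM at 36 h, against 2338, 2876 and 2288 CPM at 0 h (log2 1.02 ± 0.15 (SE), adjusted p = 8.69e-07).

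The largest falls outside the lists included MYO7B, an unconventional myosin of microvilli, at 26.7, 33.5 and 23.5 CPM at 36 h, against 956, 1184 and 917 CPM at 0 h (log2 -5.19 ± 0.21 (SE), adjusted p = 9.27e-20). LGMN, a lysosomal protease, was at 0.369, 0.463 and 0.774 CPM at 36 h, against 20.7, 18.5 and 21.0 CPM at 0 h (log2 -5.15 ± 0.34 (SE), adjusted p = 2.44e-14). DAPK1, a death-associated kinase, was at 0.123, 0.72 and 0.232 CPM at 36 h, against 13.6, 11.3 and 11.1 CPM at 0 h (log2 -5.04 ± 0.52 (SE), adjusted p = 8.25e-10). PTGER3, a prostaglandin receptor, was at 0.246, 0.103 and 0.852 CPM at 36 h, against 11.7, 10.2 and 10.4 CPM at 0 h (log2 -4.63 ± 0.50 (SE), adjusted p = 1.93e-09). The long noncoding RNA LINC00977 was at 0.369, 0.771 and 1.39 CPM at 36 h, against 21.5, 17.1 and 21.2 CPM at 0 h (log2 -4.48 ± 0.34 (SE), adjusted p = 8.3e-13). Some genes listed as markers of other cells changed too, 2 of 9 for monocytes, 3 of 10 for B cells and 4 of 9 for adherent lines (2 higher, 2 lower). Over all genes tested 36.7% were called, so these counts show nothing particular to the markers. The 15 listed markers of adherent lines summed to 16.7 to 20.6 CPM at 36 h, against 42.8 to 52.5 CPM at 0 h. The erythroid markers, 15 listed with 2 tested and neither called, summed to 6.03 to 7.66 CPM at 36 h, against 6.52 to 7.69 CPM at 0 h. CD68 rose to 18.5, 16.5 and 19.7 CPM at 36 h, against 9.86, 3.52 and 9.28 CPM at 0 h (log2 1.16 ± 0.24 (SE), adjusted p = 0.000222). CR2, a complement receptor, fell to 2.83, 4.88 and 5.69 CPM at 36 h, against 17.9, 18.3 and 19.3 CPM at 0 h (log2 -2.03 ± 0.30 (SE), adjusted p = 8.85e-07). THY1, which is also a thymocyte antigen, fell to 5.35, 9.1 and 7.43 CPM at 36 h, against 43.8, 33.6 and 43.9 CPM at 0 h (log2 -2.47 ± 0.24 (SE), adjusted p = 1.51e-10).

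Whether these changes are those of unedited cells was tested as the difference between the KO change and the WT change from 0 to 36 h. It was called for 1016 genes (4.71% of those tested) whose log2 change was higher in KO and 996 (4.62%) whose log2 change was lower in KO. The count was 1290 without WT 0 h replicate 1 and 1305 without KO 36 h replicate 6. SLAMF6 itself had a difference of log2 0.53 ± 0.19 (SE), adjusted p = 0.0819, not called in this fit. IL2 was at 179.8, 160.1 and 176 CPM in KO cells at 36 h and 56.1, 54.4 and 66.7 CPM in WT cells at 36 h. At 0 h it had 0.17, 0.176 and 0.188 CPM in KO cells, on 10 counts, and no count in WT cells. The difference in its change was not called (log2 -3.28 ± 3.89 (SE), adjusted p = 0.677). IFNG was at 19.2, 16.8 and 17.7 CPM in KO cells at 36 h and 4.35, 6.03 and 4.85 CPM in WT cells at 36 h, on 2 and 1 counts at rest. The difference in its change was not called either (log2 0.97 ± 4.97 (SE), adjusted p = 0.943). With so few counts at rest, the fitted differences of IL2 and IFNG and their SE depend on the prior count. The tests of IL2 and IFNG therefore cannot show whether their changes match those of WT cells. CD69 had a higher log2 change in KO cells (log2 1.34 ± 0.27 (SE), adjusted p = 0.00125). It was at 797, 725 and 927 CPM in KO cells at 36 h and 926, 891 and 931 CPM in WT cells at 36 h, against 8.71, 8.46 and 8.53 CPM in KO cells at 0 h and 26.4, 24.0 and 22.8 CPM in WT cells at 0 h.

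In 10 lists at least 7 members had a called difference in 1 direction and none in the other. With a higher log2 change in KO these were 12 of 27 glycolysis genes, 11 of 25 genes of the unfolded protein response, 15 of 28 cholesterol genes, 15 of 55 cytosolic ribosomal protein genes, 11 of 27 genes of ribosome biogenesis, 9 of 26 genes of the constitutive proteasome and 7 of 36 S phase genes. With a lower log2 change in KO they were 14 of 34 genes of G2 and mitosis, 7 of 13 mitochondrially encoded transcripts and 7 of 26 thymocyte and leukaemia factors. In the list of T cell receptor signalling, 3 of 28 genes had a higher change in KO and 10 a lower one. The medians of the KO change and the WT change were 0.153 and -0.278 for glycolysis, 0.416 and -0.2 for the unfolded protein response, 0.0804 and -0.554 for cholesterol genes and -2.9 and -2.38 for G2 and mitosis. PKM had a difference of log2 1.33 ± 0.14 (SE), adjusted p = 1.21e-07, with 1666, 1326 and 1484 CPM in WT cells at 36 h, against 1427, 1237 and 1599 CPM in WT cells at 0 h. Over all alternatives the glycolysis count was 10 to 12, that of the unfolded protein response 11 to 12, that of cholesterol genes 10 (without WT 36 h replicate 2) to 17, that of thymocyte factors 6 to 9 and that of receptor signalling genes with a lower change in KO 10 to 12. The other counts moved more. That of G2 and mitosis was 7 without KO 0 h replicate 1, 9 without KO 0 h replicate 3 or KO 36 h replicate 5 and 8 without WT 36 h replicate 1. That of mitochondrial transcripts was 4 without KO 0 h replicate 3. The count of ribosome biogenesis was 7 without KO 36 h replicate 6, 6 without WT 36 h replicate 2 and 20 with the 12 libraries fitted alone. Ribosomal protein genes numbered 8 without KO 36 h replicate 4 or 6, WT 36 h replicate 2 or WT 0 h replicate 2, 9 without KO 0 h replicate 1 or WT 36 h replicate 3, 26 with no filter and 30 with the 12 libraries alone. Proteasome genes numbered 2 without KO 36 h replicate 6, 3 without KO 36 h replicate 4, KO 0 h replicate 2, WT 36 h replicate 2 or WT 0 h replicate 1 or 3, 4 without KO 0 h replicate 1 or WT 36 h replicate 3, and 16 with DESeq2 or with the 12 libraries alone. S phase genes numbered 1 without WT 36 h replicate 2, 2 without KO 0 h replicate 2, 3 without KO 36 h replicate 6 or WT 36 h replicate 3, 4 without KO 36 h replicate 4 or WT 0 h replicate 1 or 3, and 11 with DESeq2.

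**Figure D5:**
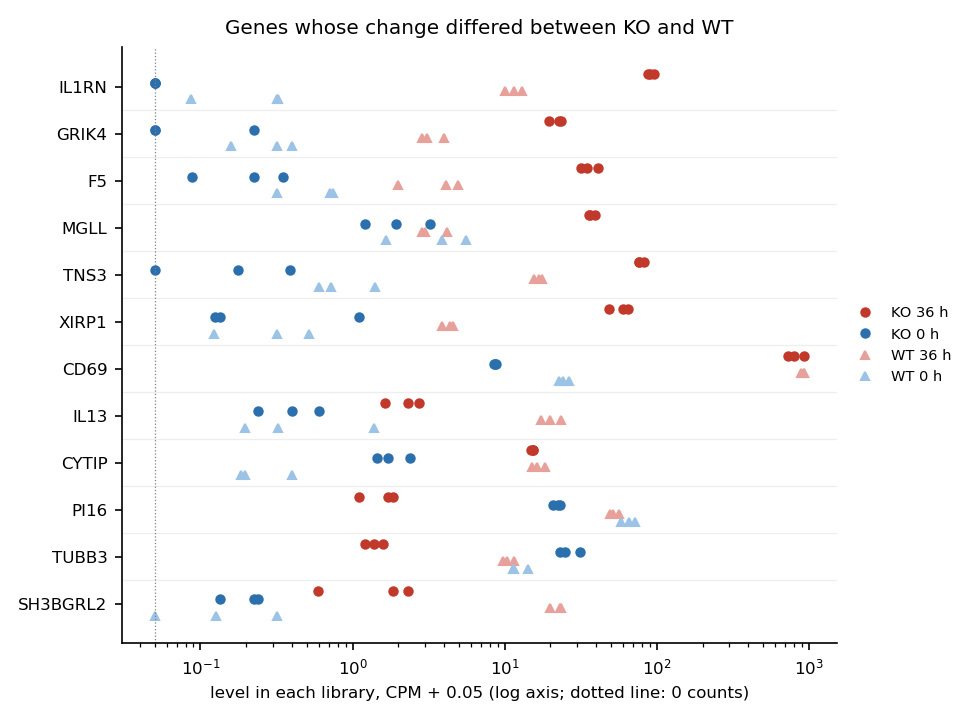
Level in each library of 12 genes that were named for a called difference between KO and WT in the change from 0 to 36 h (CPM plus 0.05 on a log axis; circles, KO; triangles, WT; red, 36 h; blue, 0 h; the dotted line marks 0 counts). At the top, genes from IL1RN to CD69 had a higher log2 change in KO, and the others below them a lower one.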

How the data were processed

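RNA sequencing libraries of Jurkat E6-1 cells were analysed from the expected counts for each symbol, deposited by the authors as 1 file a library. The submitters' processing notes name cutadapt, STAR, DESeq2, GRCh37 and hg19; the counting program is not given in the sources used here, nor is its annotation. Values were rounded to whole counts (195 symbols held values that were not whole, 0.177% of all values). All 30 libraries in 10 groups entered 1 fit of edgeR 4.0.16 (limma 3.58.1, R 4.3.3) with trimmed mean of M-values scaling, a minimum count of 10 and the quasi-likelihood test, with Benjamini-Hochberg adjustment over all genes tested; the procedure was tested on simulated data. DESeq2 1.42.0 was an alternative. Each SE was derived from the test, as the absolute log2 change over the square root of its F statistic, and was not estimated by the model. Where a group has few or no counts, the log2 change and this SE depend on the prior count. CPM are scaled by effective library size and not corrected for length, so they are not compared between genes. Genes at 0 counts in a group were set against a floor of 3 counts over its libraries, and floors cover counting error only. The members, gene lists and tests were chosen with earlier results of these data known. Named genes were SLAMF6, IL2, IFNG and CD69; called genes with at least 10 CPM and no overlap that had the 12 largest rises and falls and the 8 largest gains and losses in CPM; from each list up to 2 in its main direction and 1 in the other; and the 6 largest in each direction of the other comparisons; some of these genes are not reported here. Promoter windows came from RefSeq by symbol, 11600 of 21554 tested symbols having 1, and the first listed was used for the 3345 with more. A deposited table of the whole series was not used. Samples were grouped by the labels.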

Additional observations from a re-analysis of the deposited data

Results flagged for a closer look

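Genes listed here had a log2 change from 0 to 36 h that differed between KO and WT cells in the interaction term of edgeR's quasi-likelihood model, with Benjamini-Hochberg adjustment over all 21554 genes tested; they are CD69 and genes among the 6 largest differences in each direction. Positive values mean a higher log2 change in KO cells. The KO change and the WT change come from libraries whose title letters differ in other ways (C against B in KO, C against A in WT), and their part was not tested.

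CD69, the early activation receptor, had a difference of 1.34, adjusted p = 0.00125. MGLL, a lipase that breaks down monoacylglycerol, was at 39.4, 36.4 and 35.9 CPM in KO cells at 36 h and 1.87, 3.17 and 1.16 CPM in KO cells at 0 h, with 2.95, 2.8 and 4.1 CPM in WT cells at 36 h and 5.52, 1.61 and 3.81 CPM in WT cells at 0 h. It rose in KO cells, and the WT libraries of the 2 times overlapped (difference 4.67, adjusted p = 5.22e-09). F5, coagulation factor V, was at 34.6, 40.8 and 31.6 CPM in KO cells at 36 h and 4.9, 1.94 and 4.05 CPM in WT cells at 36 h (difference 5.11, adjusted p = 0.0048). At 0 h it had 9 counts in KO cells and 38 in WT cells. TNS3, a focal adhesion protein, was at 75.7, 82.9 and 76.3 CPM in KO cells at 36 h and 15.5, 17.4 and 16.8 CPM in WT cells at 36 h (difference 4.30, adjusted p = 0.00779). At 0 h it had 12 counts in KO cells and 55 in WT cells. XIRP1, an actin-binding protein of muscle, was at 64.8, 59.4 and 48.4 CPM in KO cells at 36 h and 3.81, 4.52 and 4.34 CPM in WT cells at 36 h (difference 4.30, adjusted p = 0.0433). At 0 h it had 10 counts in KO cells and 16 in WT cells. The fitted sizes of the F5, TNS3 and XIRP1 differences depend on these low levels at rest. IL1RN was at 90.6, 95.1 and 87.6 CPM in KO cells at 36 h and 11.4, 12.9 and 9.99 CPM in WT cells at 36 h, with no count in KO cells at 0 h, so its fitted difference (7.72, adjusted p = 0.0104) depends on the prior count. GRIK4, a glutamate receptor subunit, was at 23.3, 22.8 and 19.6 CPM in KO cells at 36 h and 3.04, 2.8 and 3.96 CPM in WT cells at 36 h, on 1 count in KO cells at 0 h, and its fitted difference was 6.0, adjusted p = 0.0142.

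In the other direction, TUBB3, a tubulin best known from neurons, was at 1.54, 1.34 and 1.16 CPM in KO cells at 36 h and 25.0, 31.0 and 23.2 CPM in KO cells at 0 h, with 9.74, 11.5 and 10.3 CPM in WT cells at 36 h and 11.3, 14.1 and 11.4 CPM in WT cells at 0 h (difference -4.08, adjusted p = 1.88e-07). PI16, a peptidase inhibitor gene, was at 1.05, 1.8 and 1.66 CPM in KO cells at 36 h and 22.5, 23.1 and 20.7 CPM in KO cells at 0 h, with 56.2, 49.1 and 51.4 CPM in WT cells at 36 h and 58.0, 71.8 and 65.5 CPM in WT cells at 0 h (difference -3.53, adjusted p = 0.00435). Both genes fell in KO cells by this measure. CYTIP, a partner of cytohesins in lymphocytes, was at 15.2, 15.2 and 14.8 CPM in KO cells at 36 h and 18.3, 15.2 and 16.3 CPM in WT cells at 36 h, with 1.66, 1.41 and 2.33 CPM in KO cells at 0 h and 0.35, 0.134 and 0.147 CPM in WT cells at 0 h (difference -3.15, adjusted p = 0.00193). SH3BGRL2 was at 1.78, 2.26 and 0.542 CPM in KO cells at 36 h and 23.3, 19.7 and 23.2 CPM in WT cells at 36 h (difference -4.88, adjusted p = 0.00996). IL13 was at 2.28, 2.67 and 1.59 CPM in KO cells at 36 h and 23.5, 17.2 and 19.9 CPM in WT cells at 36 h (difference -3.11, adjusted p = 0.0144). At 0 h SH3BGRL2 had 8 counts in KO cells and 4 in WT cells, and IL13 had 20 and 21. The fitted sizes of both differences depend on these low levels at rest.

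The differences of XIRP1, IL13, GRIK4, IL1RN, TNS3 and SH3BGRL2 were no longer called without some single libraries. Leaving out WT 0 h replicate 1 gave adjusted p = 0.466 for XIRP1, 0.0557 for IL13, 0.134 for GRIK4, 0.148 for IL1RN and 0.101 for TNS3. Leaving out KO 0 h replicate 3 gave 0.129 for SH3BGRL2, 0.102 for XIRP1 and 0.058 for GRIK4, leaving out KO 0 h replicate 1 gave 0.196 for IL13, 0.0958 for XIRP1 and 0.0549 for GRIK4, and leaving out WT 0 h replicate 3 gave 0.0562 for IL13. XIRP1 was also lost without WT 0 h replicate 2, without any 1 WT 36 h library and without KO 36 h replicate 4 or 5, with adjusted p of 0.0501 to 0.0677.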

How the results depend on the processing

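The comparison of 36 h with 0 h gave 7900 called genes, 7908 with DESeq2's size factors, 7162 with no filter on low counts, 7261 with a minimum count of 50, 8113 with DESeq2's Wald test, 7941 with the 6 libraries fitted alone and 6815 to 7210 with 1 of them left out. The difference between KO and WT gave 2012, and 2088, 1942, 2340, 2598 and 2810 under the same first 5 alternatives (12 libraries in place of 6), with 1290 to 1842 leaving 1 library out (1290 without WT 0 h replicate 1, 1305 without KO 36 h replicate 6). The comparison with 24 h gave 1601, and 1640, 1589, 1967, 2174 and 1463, with 774 to 1580 leaving 1 library out. Over the alternatives, 1744 of 1770 values of named genes kept direction and call in the comparison with 0 h, 251 of 272 in the KO and WT difference and 132 of 132 in the comparison with 24 h. Most named genes were picked for large called changes in the main fit, so these shares say little about other genes. The IFNG difference between KO and WT was 0.97 and ran from -0.84 (without WT 0 h replicate 1, the sign reversed) to 3.65 with 1 library left out; none of these was called, it rests on 2 KO counts and 1 WT count at rest, and the cause was not tested. The SLAMF6 difference was called with DESeq2's Wald test (0.55, adjusted p = 0.0462) and with the 12 libraries fitted alone (0.53, adjusted p = 0.0220). Counts of list members under each alternative were added after seeing the data. With 1 library left out, the filter let more genes through. Replicate 2 of the 0 h group, with 5635023 counts, limits the precision of low levels at rest. No paired analysis was possible because the KO libraries are numbered 1 to 3 at 0 h and 4 to 6 at 36 h, and no number is shared.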
